A study of Homo sapiens with 24 samples.

Results

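The nuclear genes for the subunits of respiratory complexes II, III and IV and of the ATP synthase (complex V) were taken by symbol: 4 genes of complex II, 9 of complex III, 11 of complex IV and 15 of the ATP synthase. All 39 of the 39 listed symbols were among the 35587 symbols of the tables of both cell lines, and all 39 passed the filter on low values in both.

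Complex II oxidizes succinate in the citric acid cycle and passes the electrons to ubiquinone in the inner mitochondrial membrane. Complex III moves electrons from ubiquinol to cytochrome c, complex IV moves them on to oxygen, and the ATP synthase uses the proton gradient that complexes III and IV help to build. Complex II is encoded by nuclear genes alone, while the others also hold subunits encoded by mitochondrial DNA, and leukaemic blasts are known to rely on this chain for energy.

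MOLM14 and OCI-AML2 are human acute myeloid leukaemia cell lines, and RNA was sequenced after 24 h with ARM165, AZ2 or DMSO, the vehicle, in 4 libraries for each of the 6 groups of line and treatment. No doses are given, and the series title names a degrader molecule and a PI3Kɣ/AKT module without saying which compound it is. Whether the 4 libraries of a group came from separate cultures is not said, so p-values rest on the variation among these libraries alone, and that may be technical. The 2 lines were scaled apart and values are normalized estimated read counts (normalized reads below), so levels are not compared between lines or between genes.

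Depth was 35444321 to 58967816 reads per library, estimated from the commonest low value, and member values were 893 to 45370.0 in MOLM14 and 1735 to 46316 in OCI-AML2. In bulk RNA of this kind fewer cells of a type and less RNA per cell cannot be told apart. Of 10 myeloid marker genes, 0 were under 10 normalized reads throughout a group except ANPEP in the AZ2 and DMSO groups of OCI-AML2, and of 13 markers of T, B, erythroid, epithelial and fibroblast cells 6 to 10 were under 10 throughout each group, with sums of 18.1 to 201.3. The summed myeloid markers were 48610.0 to 56350.0 with ARM165, 80130.0 to 84600.0 with AZ2 and 81550.0 to 85830.0 with DMSO in MOLM14, and 54670.0 to 56150.0 with ARM165, 96670.0 to 103200.0 with AZ2 and 97000.0 to 105000.0 with DMSO in OCI-AML2; their part in the results was not tested. With ARM165 against DMSO single myeloid markers went both ways (limma, adjusted p under 0.05). Of 10 tested in MOLM14 5 were lower and 3 higher, where 34.0% and 35.5% of all genes were. Of 9 tested in OCI-AML2 5 were lower and 1 higher, where 31.6% and 34.2% of all genes were. Deposited totals were lower in the ARM165 libraries of MOLM14 (37302667 to 41186885) than in its DMSO libraries (43273961 to 44963255), so calls were also made with every library scaled to the same total.

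The sequences upstream of 5 members are shown first, to set the letters before each start site beside the change of the gene: per complex, the member with 1 listed start site and the smallest adjusted p for ARM165 in MOLM14, and ATP5F1E, which changed in the other direction in OCI-AML2. They are the 250 bases before the start site in RefSeq on GRCh38.p14, written 5′ to 3′ on the strand of the gene, with the motifs searched in capitals. The search covered both strands for GCGCA, any base and GCGC in a row (NRF1), CCGGAAG (the ETS family with GABP), AAGATGGC (YY1), TGACCTTG (ESRRA), CACGTG (the E-box of MYC and MAX) and TGACGTCA (the CRE of CREB and ATF). The last of these was added after the ATP5MC1 sequence had been read.
SDHA, chr5:218070-218319, plus strand: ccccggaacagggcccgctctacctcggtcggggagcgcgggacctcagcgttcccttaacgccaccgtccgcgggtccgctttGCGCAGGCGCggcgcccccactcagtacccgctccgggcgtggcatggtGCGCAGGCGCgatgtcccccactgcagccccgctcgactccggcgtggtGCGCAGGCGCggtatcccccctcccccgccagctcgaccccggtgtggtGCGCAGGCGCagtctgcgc
UQCRH, chr1:46303448-46303697, plus strand: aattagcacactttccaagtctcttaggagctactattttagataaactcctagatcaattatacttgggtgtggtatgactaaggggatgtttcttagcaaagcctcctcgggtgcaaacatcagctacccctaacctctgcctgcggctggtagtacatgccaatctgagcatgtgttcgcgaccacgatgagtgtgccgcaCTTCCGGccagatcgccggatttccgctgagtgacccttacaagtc
COX6B1, chr19:35648073-35648322, plus strand: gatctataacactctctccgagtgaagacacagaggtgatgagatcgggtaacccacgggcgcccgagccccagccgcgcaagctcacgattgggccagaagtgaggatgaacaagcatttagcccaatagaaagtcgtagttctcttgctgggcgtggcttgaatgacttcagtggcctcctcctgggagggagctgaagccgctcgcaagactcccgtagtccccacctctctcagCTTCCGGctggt
ATP5MC1, chr17:48892537-48892786, plus strand: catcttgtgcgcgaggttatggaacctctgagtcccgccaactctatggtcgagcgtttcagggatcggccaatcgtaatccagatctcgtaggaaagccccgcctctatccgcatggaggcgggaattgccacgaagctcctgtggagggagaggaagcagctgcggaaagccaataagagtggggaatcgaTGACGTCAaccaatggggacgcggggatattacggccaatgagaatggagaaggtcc
ATP5F1E, chr20:59032336-59032585, minus strand: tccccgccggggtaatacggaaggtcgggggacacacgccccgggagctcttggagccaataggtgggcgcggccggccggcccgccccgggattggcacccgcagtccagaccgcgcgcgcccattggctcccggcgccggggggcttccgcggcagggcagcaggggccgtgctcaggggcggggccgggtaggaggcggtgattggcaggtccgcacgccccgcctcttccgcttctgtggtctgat
The SDHA window held 4 copies of GCGCAGGCGC, which began 166, 117, 68 and 19 bases before the start site and so lay 49 bases apart. UQCRH and COX6B1 each had 1 ETS motif read on the opposite strand, beginning 46 and 12 bases before the start. ATP5MC1 had 1 CRE beginning 57 bases before the start, and ATP5F1E had none of the motifs. No match in a printed sequence overlapped another.

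Of the 39 members, 30 were in the promoter table, and SDHC, UQCRB, CYC1, COX6C, NDUFA4, ATP5F1B, ATP5F1D, ATP5MC3 and ATP5MF were not. A gene was counted if the window of any of its listed start sites held the motif, and 4 of the 30 members had several start sites. The ETS motif was found for 12 of the 30 members (40.0%), against 10.2% of all 27305 genes of that table. The NRF1 motif was found for 8 (26.7%), against 6.2%. Those 27305 genes were not limited to the genes tested here. The CRE was found for 2 members, ATP5MC1 and ATP5ME (6.67% against 2.03%), and the E-box for 3 (10.0% against 7.73%). The CRE was searched after the ATP5MC1 sequence had been read, so that match was known beforehand and its 2 shares are not a fair comparison. The YY1 motif was found for 1 (3.33% against 1.64%) and the ESRRA motif for 1 (3.33% against 1.42%). In all, 21 of the 30 members had a motif. These are matches of letters, and no binding was measured.

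The first question was how ARM165 moved these genes. With ARM165, 37 of the 39 members fell in MOLM14 and 0 rose, where 34.0% of the 15288 genes tested fell and 35.5% rose (limma, adjusted p under 0.05). In OCI-AML2 33 members fell and 2 rose, where 31.6% of 15377 genes fell and 34.2% rose. The median log2 change of the members was -0.60 in MOLM14 and -0.52 in OCI-AML2, while that of all genes tested was 0.031 and 0.034. All 4 ARM165 libraries lay below all 4 DMSO libraries for 35 members in MOLM14 and for 32 in OCI-AML2, against 30.7% and 28.8% of all genes. With every library scaled to the same total, 32 members fell and 2 rose in MOLM14 and the members' median was -0.40, where the median of all genes was 0.22 and genes called higher were 6658 against 4145 lower, instead of 5427 against 5196.

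By median change the ATP synthase and complex IV moved most and complex II least. The median log2 change was -0.64 in MOLM14 and -0.65 in OCI-AML2 for the ATP synthase, -0.60 and -0.67 for complex IV, -0.55 and -0.24 for complex III and -0.28 and -0.21 for complex II. In MOLM14 15 of 15 ATP synthase genes, 11 of 11 complex IV genes, 8 of 9 complex III genes and 3 of 4 complex II genes fell. In OCI-AML2 14 of 15, 10 of 11, 6 of 9 and 3 of 4 fell, with 1 ATP synthase gene and 1 complex II gene higher. No test was made between complexes, and some medians were close. With 1 library left out, the MOLM14 median was -0.61 to -0.52 for complex III and -0.65 to -0.54 for complex IV. In OCI-AML2 it was -0.25 to -0.16 for complex II and -0.28 to -0.20 for complex III, so both pairs of ranges overlapped. The size of the change also differed within a complex, from -1.81 to -0.22 among ATP synthase genes in MOLM14.

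**Figure D1:**
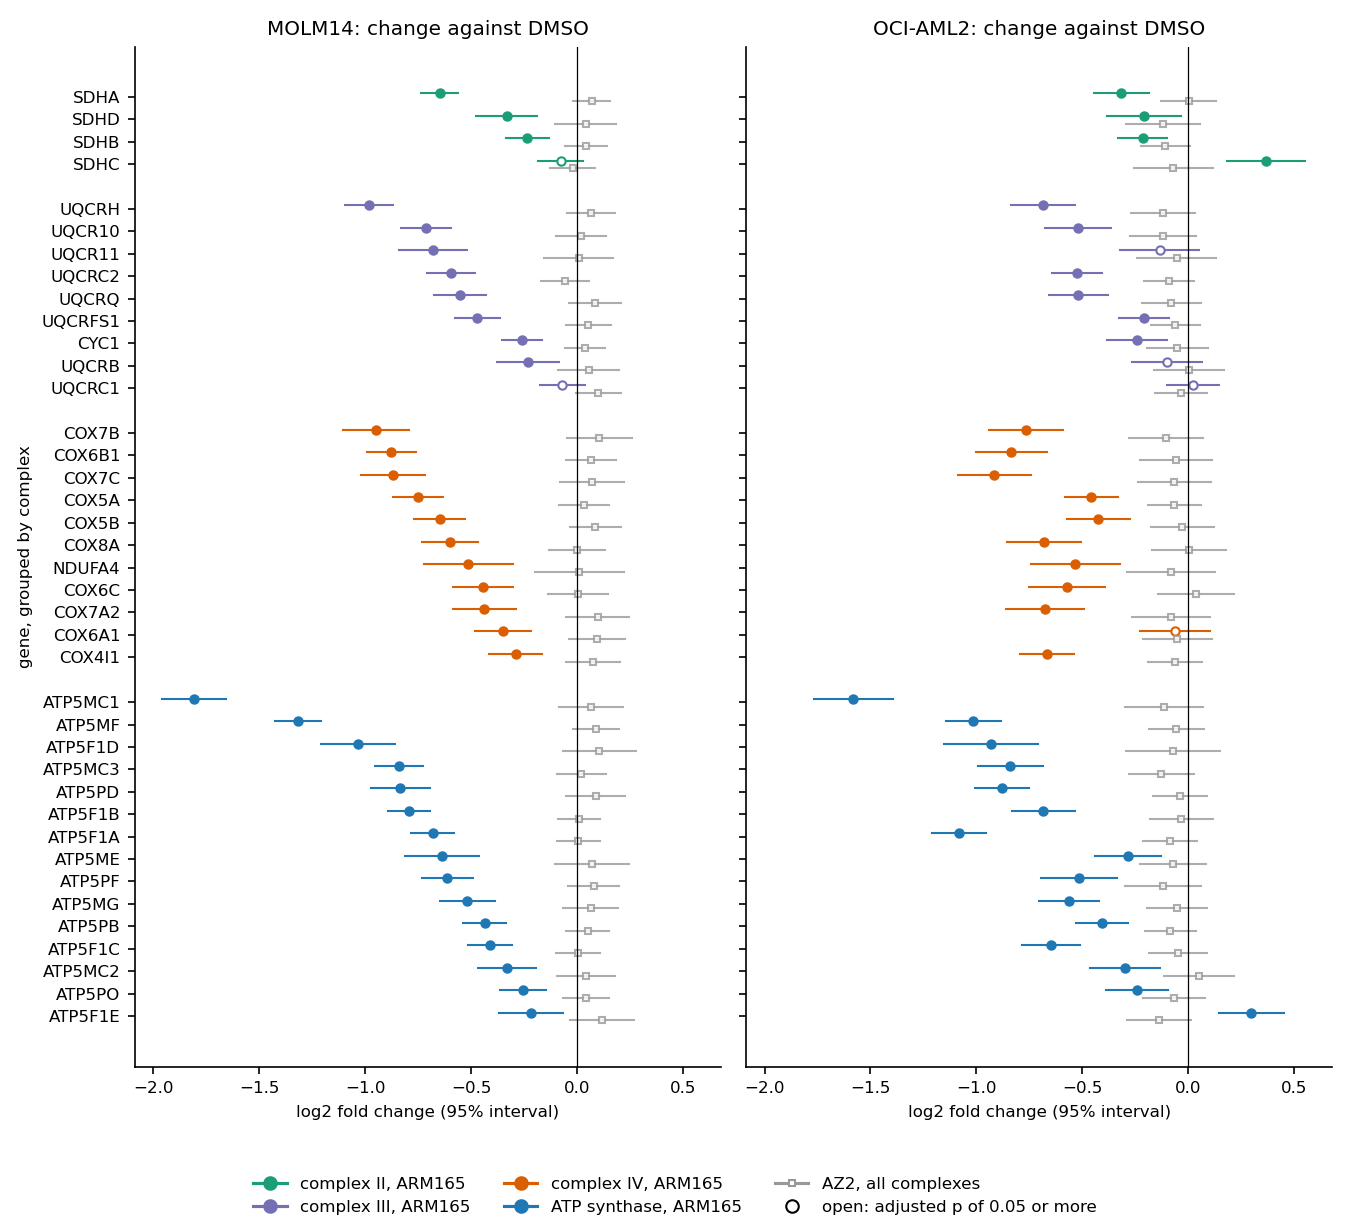
Log2 change against DMSO (horizontal axis, 95% interval of each gene) for the 39 genes in MOLM14 and OCI-AML2, with ARM165 as coloured circles and AZ2 as grey squares, grouped by complex and ordered within a complex by the ARM165 change in MOLM14. With ARM165 37 and 33 genes fell and 0 and 2 rose, while all AZ2 intervals include 0.

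In complex II the catalytic part fell in both lines and the membrane anchors did not move as a pair. SDHA, the flavoprotein that oxidizes succinate, had 5421, 5510.0, 5622 and 5889 with ARM165, 9589, 8858, 9525 and 8928 with AZ2 and 8884, 8708, 8762 and 8804 with DMSO in MOLM14. All 4 ARM165 libraries were below the other 8, and the log2 change against DMSO was -0.65 ± 0.040 (SE, adjusted p = 9.88e-10). In OCI-AML2 it had 17666, 17168, 17782 and 17777 with ARM165, 21716, 21159, 23497 and 21494 with AZ2 and 21059, 24727, 22229.5 and 19876 with DMSO. The ARM165 libraries were again the lowest, with a smaller change of -0.32 ± 0.061 (adjusted p = 0.000266). Reads of SDHA could be shared with its pseudogene copies, whose summed values were 10.8% of the gene's in MOLM14 and 5.06% in OCI-AML2.

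SDHB, the iron-sulfur subunit, had 3310.2, 3488, 3593 and 3604 with ARM165 and 4294, 4001, 3942 and 4222 with DMSO in MOLM14, and 5332, 5263, 5511 and 5608 with ARM165 and 6019, 6854, 6089 and 6242 with DMSO in OCI-AML2. The groups did not overlap in either line, and the changes were -0.23 ± 0.046 (adjusted p = 0.000343) and -0.21 ± 0.054 (adjusted p = 0.00263). SDHD, a membrane anchor, had 5490.0, 5299, 5529 and 6751 with ARM165 and 6899, 7318, 7137 and 7573 with DMSO in MOLM14 and changed by -0.33 ± 0.068 there (adjusted p = 0.000416). Its change in OCI-AML2 was -0.21 ± 0.082 (adjusted p = 0.0366), with 1 ARM165 library inside the DMSO range, and this call was lost when ARM165 replicate 1, 2 or 3 or DMSO replicate 2 was left out (adjusted p up to 0.122). It was lost as well with no filter on low values (adjusted p = 0.0774), after quantile normalization (adjusted p = 0.0552) and with no variance trend (adjusted p = 0.0758). With every library scaled to the same total the SDHB call in MOLM14 was also lost.

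SDHC, the other membrane anchor, went the other way in OCI-AML2. It had 6441, 6967, 6905 and 6729 with ARM165, 4695, 5026, 4694 and 5587 with AZ2 and 5174, 6372, 5056 and 4514 with DMSO in that line. Every ARM165 library was above all AZ2 and DMSO libraries, and SDHC rose by 0.37 ± 0.087 (adjusted p = 0.00156). In MOLM14 it had 4689, 4698, 5023 and 5469 with ARM165, 5246, 4950.2, 5210.3 and 5224 with AZ2 and 5143, 5126, 5370.5 and 5294 with DMSO. The groups overlapped there and the change was -0.077 ± 0.049 (95% interval -0.18 to 0.028, adjusted p = 0.178). That value was 0.11 and called higher (adjusted p = 0.00581) with every library scaled to the same total, and was called lower (-0.12, adjusted p = 0.0139) without ARM165 replicate 4 and with median-of-ratios factors (-0.099, adjusted p = 0.0283).

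UQCRH had the lowest change of complex III in both lines, and UQCRC1 passed in neither. UQCRH, the hinge protein that helps cytochrome c1 meet cytochrome c, had 8636, 8569.9, 9406 and 10215 with ARM165, 19169, 18192, 20084 and 18721 with AZ2 and 18610.2, 17872, 18111 and 18069.9 with DMSO in MOLM14. The ARM165 values were near 0.506 of the DMSO values and far below both other groups, with a change of -0.98 ± 0.053 (adjusted p = 1.84e-10). In OCI-AML2 UQCRH had 15909.7, 16897, 16803 and 16569.9 with ARM165, 22349.7, 24146, 24629.8 and 27136 with AZ2 and 24266, 30681, 26725 and 25225 with DMSO. No library of ARM165 reached the lowest of the others, and the change was -0.69 ± 0.071 (adjusted p = 4.26e-07).

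UQCR10, a small subunit, had 2329, 2207, 2616 and 2541 with ARM165, 4103, 3941, 4199.8 and 3832 with AZ2 and 4022, 3793, 4122 and 3929 with DMSO in MOLM14. It changed by -0.71 ± 0.056 without overlap (adjusted p = 1.47e-08). UQCRC2, a core protein of the matrix side, had 1426, 1466, 1368 and 1492 with ARM165 and 2260.2, 2074, 2275 and 2085 with DMSO in MOLM14 and 2011, 1995, 2088 and 1957 with ARM165 and 2808, 3166, 2838 and 2796 with DMSO in OCI-AML2. Its groups were apart in both lines, with changes of -0.60 ± 0.053 (adjusted p = 7.16e-08) and -0.53 ± 0.055 (adjusted p = 4.98e-07). UQCRQ, a small ubiquinone-binding subunit, had 5304, 5988, 5764 and 5888 with ARM165 and 7919.5, 8982, 8365 and 7641 with DMSO in OCI-AML2 and changed by -0.52 ± 0.065 there (adjusted p = 3.45e-06), with all ARM165 libraries lower.

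The partner core protein UQCRC1 did not pass in either line. It had 5285, 5170.4, 5652 and 5712 with ARM165 and 6054, 5857, 5349 and 5630.0 with DMSO in MOLM14, and 8613, 9478, 9151 and 8588 with ARM165 and 8879, 8884, 8877 and 8591 with DMSO in OCI-AML2. The groups overlapped in both, and the 95% intervals of the change were -0.17 to 0.037 and -0.098 to 0.14 (adjusted p = 0.229 and 0.741). Scaling to the same total gave 0.12 for UQCRC1 in MOLM14 (adjusted p = 0.0404). The electron-carrying subunits fell: UQCRFS1, the Rieske iron-sulfur protein, with changes of -0.47 ± 0.050 in MOLM14 and -0.21 ± 0.054 in OCI-AML2, and CYC1, cytochrome c1, with changes of -0.26 ± 0.044 and -0.24 ± 0.067 (largest adjusted p = 0.00488). At the same total the CYC1 call in MOLM14 was lost, and pseudogene copies of UQCRFS1 had 5.22% of its value in MOLM14 and 1.61% in OCI-AML2.

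UQCRB and UQCR11, both small subunits, were called lower in MOLM14 and were not called in OCI-AML2. Their changes in MOLM14 were -0.23 ± 0.068 (adjusted p = 0.00672) and -0.68 ± 0.076 (adjusted p = 9.25e-07). In OCI-AML2 their changes were -0.099 ± 0.078 and -0.14 ± 0.087 (adjusted p = 0.28 and 0.19). The direction of UQCRB depended on scaling, since it was 0.11 in MOLM14 (adjusted p = 0.0395) and 0.054 in OCI-AML2 after quantile normalization, and its call in MOLM14 was lost at the same total. UQCR11 was called lower in OCI-AML2 after quantile normalization (-0.19, adjusted p = 0.0393). In GENCODE release 29 an unnamed gene, AC005943.1, overlaps UQCR11 on the same strand over 235 exon bases and had a mean of 2517 normalized reads in MOLM14 beside 2695 for UQCR11, so how reads were divided between them is uncertain.

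**Figure D2:**
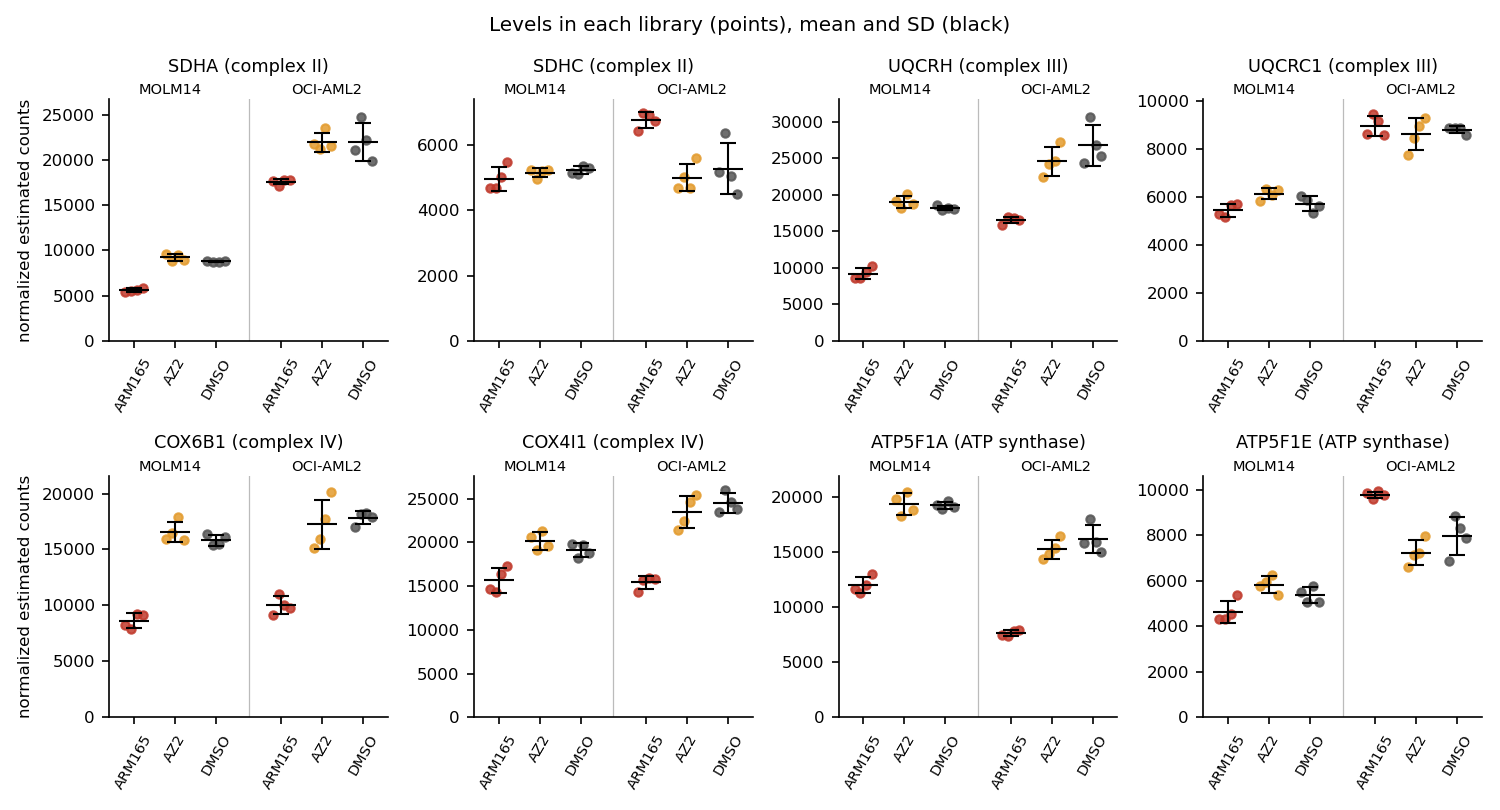
Normalized reads (vertical axis from 0) of 8 genes in each library, with the mean and SD of 4 libraries in black, for ARM165, AZ2 and DMSO in MOLM14 and OCI-AML2; the lines were scaled apart, so heights are compared within a line. SDHA, UQCRH, COX6B1, COX4I1 and ATP5F1A are lowest with ARM165 in both lines, UQCRC1 with ARM165 overlaps DMSO in both, and SDHC and ATP5F1E are highest with ARM165 in OCI-AML2.

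All 11 complex IV genes fell in MOLM14 and 10 in OCI-AML2, with COX6A1 the exception in OCI-AML2. COX6B1, which faces the side where cytochrome c docks, had 8300.0, 7858, 9212 and 9145 with ARM165, 15960.4, 16499, 17860.1 and 15885 with AZ2 and 16340.0, 15378, 15452 and 16084 with DMSO in MOLM14. Every ARM165 library was below every AZ2 and DMSO library, with a change of -0.88 ± 0.055 (adjusted p = 1.06e-09). In OCI-AML2 COX6B1 had 9176, 11066, 10061 and 9792 with ARM165, 15169.6, 15922, 17717 and 20154 with AZ2 and 17007, 18152, 18248 and 17935 with DMSO. ARM165 was again lowest without overlap, with a change of -0.83 ± 0.079 (adjusted p = 1.45e-07).

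COX5A, a matrix-side subunit, had 10369, 10378, 11592 and 12020.5 with ARM165, 18959, 18621, 20405 and 18229.5 with AZ2 and 19361, 18133, 19114 and 17874 with DMSO in MOLM14. Its ARM165 values lay apart from the rest, and the change was -0.75 ± 0.055 (adjusted p = 6.36e-09). COX7B, a small transmembrane subunit, had 3196, 3545, 3519 and 4015 with ARM165, 7025, 7341, 8152 and 7118 with AZ2 and 7640.5, 6386, 6966 and 6559 with DMSO in MOLM14. It had the lowest change of the complex there, -0.95 ± 0.072 (adjusted p = 1.04e-08), without overlap.

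In OCI-AML2 the lowest change was that of COX7C, another small transmembrane subunit, with 8156, 9094, 9078 and 8944 with ARM165, 15361, 15507, 15474 and 17230.2 with AZ2 and 15104, 20326, 15766 and 15701 with DMSO. ARM165 libraries stood clear of the others, and the change was -0.91 ± 0.081 (adjusted p = 6.42e-08). COX4I1, a large nuclear subunit that binds adenine nucleotides, had 14334, 15723, 15908 and 15764 with ARM165, 21431, 22468, 24574 and 25422 with AZ2 and 23443, 25985, 24659 and 23833 with DMSO in OCI-AML2. Its groups were apart, with a change of -0.67 ± 0.060 (adjusted p = 8.24e-08). In MOLM14 COX4I1 had the smallest change of the complex, -0.29 ± 0.059 (adjusted p = 0.000439), with values of 14638, 14374, 16359.6 and 17295 with ARM165 and 19793, 18167, 19749 and 18752 with DMSO.

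The other complex IV genes also fell in MOLM14, with changes between -0.87 for COX7C and -0.35 for COX6A1 among COX5B, COX6A1, COX6C, COX7A2, COX7C, COX8A and NDUFA4. NDUFA4, first assigned to complex I and now counted in complex IV, had 893, 1074, 1027 and 1281 with ARM165 and 1600.1, 1454, 1637 and 1374 with DMSO in MOLM14. It fell in both lines without overlap, with changes of -0.51 ± 0.099 and -0.53 ± 0.098 (adjusted p = 0.000254 and 0.000172). COX6A1 had 12384, 14756, 13318 and 11891 with ARM165 and 13081, 14059, 13819 and 13545 with DMSO in OCI-AML2. These groups overlapped, and the 95% interval of the change was -0.23 to 0.10 (adjusted p = 0.498).

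The catalytic head and central stalk of the ATP synthase fell in both lines except for the epsilon subunit. ATP5F1A, the alpha subunit, had 11667, 11322, 12071 and 13022 with ARM165, 19852, 18284, 20465 and 18843 with AZ2 and 19333, 18951, 19624 and 19122 with DMSO in MOLM14, and 7491, 7374, 7821 and 7912 with ARM165, 14434, 14886, 15375 and 16447 with AZ2 and 15884, 18042, 15951 and 15016 with DMSO in OCI-AML2. No ARM165 library overlapped another group in either line. The change was -0.68 ± 0.048 in MOLM14 (adjusted p = 4.01e-09) and -1.08 ± 0.059 in OCI-AML2 (adjusted p = 2.47e-10). ATP5F1B, the beta subunit that holds the catalytic sites, had 24416, 23236, 26097 and 26780.3 with ARM165, 44706, 42632, 45370.0 and 42106 with AZ2 and 43709.7, 42949.8, 43658 and 43367 with DMSO in MOLM14. It changed by -0.79 ± 0.046 there and -0.68 ± 0.070 in OCI-AML2, lower in every ARM165 library (adjusted p = 4.96e-10 and 3.41e-07).

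Of the central stalk, ATP5F1D, the delta subunit, had changes of -1.03 ± 0.081 and -0.93 ± 0.10 in MOLM14 and OCI-AML2, and ATP5F1C, the gamma subunit that turns inside the head, -0.41 ± 0.049 and -0.65 ± 0.064. ATP5F1E, the epsilon subunit, had 9845, 9588, 9925 and 9755 with ARM165, 6619.6, 7143, 7229 and 7960.0 with AZ2 and 6882, 8839, 8327 and 7888 with DMSO in OCI-AML2. Every ARM165 library was above the AZ2 and DMSO libraries, and ATP5F1E rose by 0.30 ± 0.071 (adjusted p = 0.00167). In MOLM14 it had 4321, 4313, 4532 and 5366 with ARM165, 5757, 5969, 6239.9 and 5368 with AZ2 and 5521, 5087, 5795 and 5092 with DMSO. There 1 ARM165 library lay inside the DMSO range, and the change was -0.22 ± 0.071 (adjusted p = 0.013), a call that was lost when each library was scaled to the same total.

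The c subunit, which forms the rotating ring in the membrane, is encoded by ATP5MC1, ATP5MC2 and ATP5MC3, whose mature proteins are the same and whose import sequences differ. ATP5MC1 had 1831, 1812, 2360.2 and 2076 with ARM165, 7543, 7255, 7457 and 7221 with AZ2 and 7106, 6889, 7535 and 6658 with DMSO in MOLM14. In OCI-AML2 it had 2442, 2625, 2396 and 2196 with ARM165, 6047, 6581, 6702 and 7376 with AZ2 and 6550.0, 8683, 7011 and 6758 with DMSO. ARM165 libraries were far below all others in both lines, and ATP5MC1 had the lowest change of the 39 members in each, -1.81 ± 0.071 (fold 0.285, adjusted p = 5.84e-12) and -1.58 ± 0.087 (fold 0.335, adjusted p = 2.55e-10).

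ATP5MC2 had 14126, 13928, 15788 and 17106 with ARM165, 19596, 18642, 21588 and 18943 with AZ2 and 19154, 18407, 20124 and 18727 with DMSO in MOLM14, and 16238, 19709, 18123 and 16729 with ARM165, 20140.3, 21711, 22595 and 25829 with AZ2 and 20470.4, 23519, 22045 and 20917 with DMSO in OCI-AML2. It fell with changes of -0.33 ± 0.065 and -0.30 ± 0.078 (adjusted p = 0.000295 and 0.00321), without overlap between ARM165 and DMSO. ATP5MC3 had 6900.0, 6381, 7231 and 7718 with ARM165, 12606, 12434, 13725 and 12465 with AZ2 and 12937, 12286, 12714 and 12528 with DMSO in MOLM14, and 9391, 10376, 9914 and 9769 with ARM165, 15252, 15710.4, 15731 and 18102 with AZ2 and 17600.5, 20194, 17176 and 15844 with DMSO in OCI-AML2. Its change lay between the other 2 genes in both lines, with changes of -0.84 ± 0.054 and -0.84 ± 0.072 (adjusted p = 1.32e-09 and 4.35e-08).

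Ratios within a library do not depend on the scaling of libraries. The log2 ratio of ATP5MC1 to ATP5MC2 averaged -2.92 ± 0.13 with ARM165 and -1.44 ± 0.036 with DMSO in MOLM14, and -2.87 ± 0.093 with ARM165 and -1.59 ± 0.10 with DMSO in OCI-AML2 (SD, n = 4). Its difference was -1.48 and -1.28 on the log2 scale, with no overlap in either line (two-sided exact permutation test, p = 0.0286 each, the smallest that 4 against 4 can give, and 0.0429 after Benjamini-Hochberg adjustment over 12 ratio tests). ATP5MC3 over ATP5MC2 differed by -0.51 in MOLM14 and -0.54 in OCI-AML2, and ATP5MC1 over ATP5MC3 by -0.97 and -0.74 (exact permutation p = 0.0286 and adjusted p = 0.0429 each). With AZ2 in OCI-AML2 ATP5MC1 over ATP5MC2 averaged -1.76 ± 0.038 and ATP5MC3 over ATP5MC2 -0.48 ± 0.055, against -1.59 ± 0.10 and -0.30 ± 0.095 with DMSO, differences of -0.16 and -0.18 (exact permutation p = 0.0286, adjusted p = 0.0429). For ATP5MC3 over ATP5MC2 the highest AZ2 library was at -0.4011 and the lowest DMSO library at -0.4008, so those groups only just separated. Both adjusted values rest on the family of 12 tests, which includes the ARM165 ratios. In the other 4 AZ2 tests the exact permutation p was 0.371 to 0.914.

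**Figure D3:**
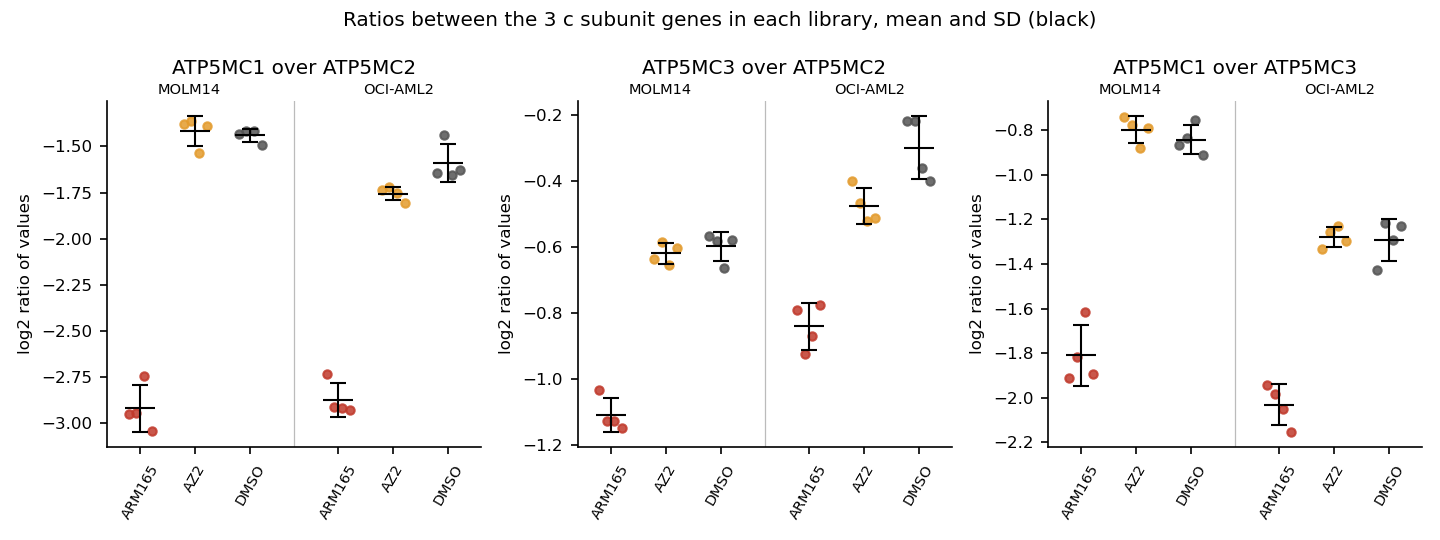
Log2 ratios between the normalized reads of ATP5MC1, ATP5MC2 and ATP5MC3 (vertical axis) in each library of ARM165, AZ2 and DMSO in both lines, with mean and SD of 4 libraries in black. All ARM165 libraries lie below all DMSO libraries for the 3 ratios in both lines.

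The peripheral stalk, which holds the head in place, fell in all 4 genes in both lines. ATP5PD, the d subunit, had 3985, 3816, 4435 and 4641 with ARM165 and 7919, 7047, 7744 and 7319 with DMSO in MOLM14 and 5656, 5976, 6224 and 6268 with ARM165 and 10312, 12117, 11223 and 10756 with DMSO in OCI-AML2. These groups were apart, with changes of -0.83 ± 0.065 and -0.88 ± 0.059 (adjusted p = 1.48e-08 and 2.84e-09). ATP5PF, coupling factor 6, had changes of -0.61 ± 0.056 and -0.51 ± 0.084, and ATP5PB, the b subunit, of -0.44 ± 0.047 and -0.41 ± 0.057. ATP5PO, the oligomycin sensitivity protein that ties the stalk to the head, had the smallest, -0.25 ± 0.051 and -0.24 ± 0.069 (adjusted p = 0.000367 and 0.00583), and its call in MOLM14 was lost with every library at the same total.

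Among the small membrane subunits ATP5MF, the f subunit, had 5816, 6509, 6303 and 6849 with ARM165, 16704, 16543, 17759 and 16367 with AZ2 and 16761, 15423, 15857 and 15306 with DMSO in MOLM14. In OCI-AML2 it had 9988, 10871, 11160.1 and 10646 with ARM165, 19108, 19781, 21730.0 and 22384 with AZ2 and 20259, 22405, 22567 and 20933 with DMSO. ARM165 values were less than those of both other groups throughout, at -1.32 ± 0.051 (fold 0.402, adjusted p = 4.8e-12) and -1.01 ± 0.060 (fold 0.495, adjusted p = 5.94e-10). ATP5MF and ATP5MC1 were the 2 members with a log2 change under -1 in both lines. ATP5ME and ATP5MG, the e and g subunits that link pairs of ATP synthases, had changes of -0.64 ± 0.081 and -0.52 ± 0.061 in MOLM14 and of -0.29 ± 0.073 and -0.56 ± 0.066 in OCI-AML2, all called (largest adjusted p = 0.0027).

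Summed over the 39 genes, the members made up 0.731 ± 0.0222% with ARM165, 0.975 ± 0.0187% with AZ2 and 0.958 ± 0.0138% with DMSO of the library total in MOLM14 (SD, n = 4). In OCI-AML2 they made up 0.876 ± 0.0171% with ARM165, 1.16 ± 0.0424% with AZ2 and 1.20 ± 0.0545% with DMSO. The ATP synthase genes took 0.315 ± 0.00907% with ARM165, 0.445 ± 0.00844% with AZ2 and 0.439 ± 0.00566% with DMSO in MOLM14 and 0.323 ± 0.00645% with ARM165, 0.464 ± 0.0208% with AZ2 and 0.481 ± 0.0208% with DMSO in OCI-AML2. ARM165 libraries were below every other library of their line for these sums and for each sum that follows. Complex IV took 0.204 ± 0.00891% with ARM165, 0.275 ± 0.00897% with AZ2 and 0.268 ± 0.00532% with DMSO in MOLM14 and 0.228 ± 0.0111% with ARM165, 0.330 ± 0.0155% with AZ2 and 0.338 ± 0.0164% with DMSO in OCI-AML2. Complex III took 0.161 ± 0.00375% with ARM165, 0.197 ± 0.00189% with AZ2 and 0.193 ± 0.00404% with DMSO in MOLM14 and 0.239 ± 0.00464% with ARM165, 0.276 ± 0.00876% with AZ2 and 0.285 ± 0.0126% with DMSO in OCI-AML2. Complex II, whose sums were nearest to each other, took 0.0512 ± 0.00109% with ARM165, 0.0580 ± 0.000829% with AZ2 and 0.0574 ± 0.00134% with DMSO in MOLM14 and 0.0854 ± 0.00137% with ARM165, 0.0920 ± 0.00181% with AZ2 and 0.0944 ± 0.00645% with DMSO in OCI-AML2. No test was made on these sums.

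**Figure D4:**
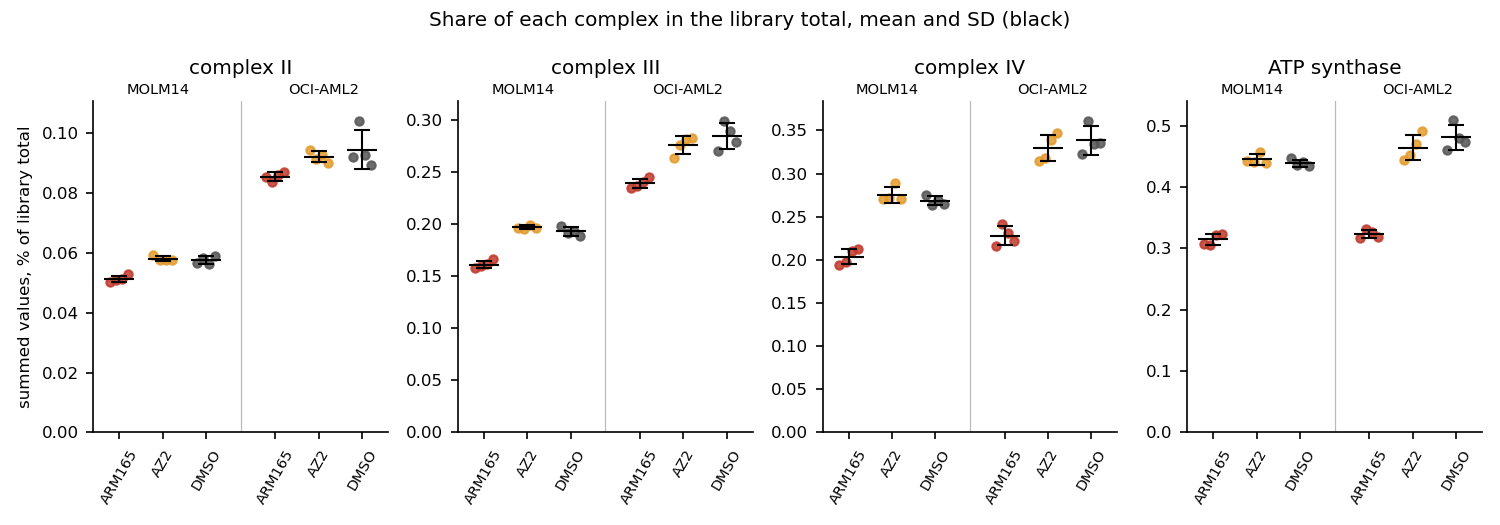
Summed normalized reads of the members of each complex as a percent of the library total (vertical axis from 0) in each library of ARM165, AZ2 and DMSO, with mean and SD of 4 libraries in black. In both lines all 4 ARM165 libraries lie below all DMSO libraries for each complex, and the AZ2 libraries lie near the DMSO libraries.

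Most members moved alike in the lines. Of the 39, 33 fell in both, 3 fell in MOLM14 and were not called in OCI-AML2 (UQCRB, UQCR11 and COX6A1), ATP5F1E fell in MOLM14 and rose in OCI-AML2, SDHC rose in OCI-AML2 and was not called in MOLM14, and UQCRC1 was called in neither. Across the 39 genes the changes in the 2 lines had a Pearson r of 0.827 and a Spearman rho of 0.78, a description of genes that share their libraries within a line. The difference between the lines was tested as OCI-AML2 minus MOLM14, and 13 members passed, where 42.4% of the 14287 genes tested did. For 10 members the change was higher in OCI-AML2 and for 3 it was lower, where 24.3% and 18.1% of all genes were.

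The smallest adjusted p was that of ATP5F1A, with changes of -1.08 in OCI-AML2 and -0.68 in MOLM14 and a difference of -0.40 ± 0.076 (adjusted p = 0.000151). The other 2 that were lower in OCI-AML2 were COX4I1 (-0.38 ± 0.086, adjusted p = 0.00108) and ATP5F1C (-0.24 ± 0.081, adjusted p = 0.0203). ATP5F1E differed by 0.52 ± 0.11 (adjusted p = 0.000333), SDHC by 0.44 ± 0.10 (adjusted p = 0.00131), SDHA by 0.33 ± 0.071 (adjusted p = 0.000569) and UQCR11 by 0.54 ± 0.12 (adjusted p = 0.000835). UQCR11 had 2579.7, 3231, 2682 and 2813 with ARM165 and 2902, 3248, 3249 and 2987 with DMSO in OCI-AML2, and 1962, 1675, 1934 and 2113 with ARM165 and 3399, 2945, 3004 and 2942 with DMSO in MOLM14. The MOLM14 groups of UQCR11 were apart and the OCI-AML2 groups overlapped.

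The remaining calls, all higher in OCI-AML2, were for ATP5MF, UQCRFS1, COX5A, UQCRH, ATP5ME and COX6A1, with differences of 0.26 to 0.35. The split between directions changed with the scaling, for the members and for all genes. With every library at the same total, 11 members were lower and 5 higher, and 8 of the 13 calls remained. Of all 14287 genes 3821 were then lower and 2382 higher, instead of 2582 and 3471. The members' median difference was -0.067 instead of 0.092, where that of all genes was -0.11 instead of 0.044. The 5 calls lost at the same total were UQCRFS1 (0.11, adjusted p = 0.0757), UQCRH (0.14, adjusted p = 0.0754), COX5A (0.13, adjusted p = 0.0616), COX6A1 (0.13, adjusted p = 0.217) and ATP5ME (0.19, adjusted p = 0.0741). With 1 library left out the members' median difference was 0.052 to 0.11, and it was 0.057 without DMSO replicate 1 and 0.052 without DMSO replicate 4 of OCI-AML2. The calls for COX6A1 and ATP5F1C were lost in 6 and 2 of the 24 fits that left out 1 library.

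The second question was how AZ2 moved these genes. With AZ2 0 of the 39 members passed in MOLM14, where 0% of the 15288 genes did, and 0 in OCI-AML2, where 0.111% of 15377 did (limma). No member reached an unadjusted p under 0.05 in either line, while 899 genes in MOLM14 and 733 in OCI-AML2 did. The AZ2 and DMSO libraries of all 39 members overlapped in both lines, where 2.61% of all genes lay lower and 1.82% higher without overlap in MOLM14 and 1.48% and 1.18% in OCI-AML2. All 95% intervals included 0, and their outer bounds were -0.20 (NDUFA4) and 0.28 (ATP5F1D) in MOLM14 and -0.30 (ATP5MC1) and 0.22 (COX6C) in OCI-AML2. The members' median was 0.055 in MOLM14, with 37 of 39 above 0, and -0.066 in OCI-AML2, with 34 of 39 below 0, while the medians of all genes were 0.0013 and -0.017. Of all genes 7715 of 15288 were above 0 in MOLM14 and 8647 of 15377 below 0 in OCI-AML2. The members of a line share the same libraries, so their signs are not independent and these counts test nothing. With 1 library left out the members' median was 0.037 to 0.073 in MOLM14. In OCI-AML2 it was -0.12 to -0.029, at -0.12 without AZ2 replicate 4, -0.029 without AZ2 replicate 1 and -0.030 without DMSO replicate 2. The smallest unadjusted p were those of UQCRC1 and ATP5MF in MOLM14, with changes of 0.10 ± 0.050 and 0.089 ± 0.051, and of ATP5F1E and SDHB in OCI-AML2, with -0.14 ± 0.071 and -0.11 ± 0.054. With 1 library left out these 2 ran from -0.21 (without DMSO replicate 1) to -0.088 for ATP5F1E and from -0.14 to -0.066 for SDHB, both highest without DMSO replicate 2, and neither was called.

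The compounds were also set against each other, at doses not known to match. With ARM165 against AZ2, 38 members were lower and 0 higher in MOLM14, where 34.0% and 36.1% of all genes were, and SDHC did not pass (-0.056 ± 0.049, adjusted p = 0.327). In OCI-AML2 31 were lower and 2 higher, where 31.4% and 34.5% of all genes were. The members' median was -0.60 in MOLM14 and -0.43 in OCI-AML2. The difference of the AZ2 change between the lines passed for 0 members, where 0.0280% of genes did. Its median over the members was -0.13, and -0.016 over all genes. At an unadjusted p under 0.05 (limma) were 2 of the 39 members and 746 of all 14287 genes.

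Set beside the upstream sequences shown above, the 12 members with an ETS motif had a median ARM165 change of -0.63 in MOLM14 and -0.52 in OCI-AML2, and the 18 without it -0.50 and -0.49. The 8 with an NRF1 motif, SDHA among them, had -0.44 and -0.23, and the 22 without it -0.61 and -0.54. ATP5MC1 and ATP5ME, the 2 with a CRE, had -1.81 and -0.64 in MOLM14 and -1.58 and -0.29 in OCI-AML2, so the pair did not move alike. These are descriptions of a few genes with no test.

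Assembly factors, which put the subunits and their cofactors in place, moved in both directions. Of 13 factors for complexes II and III, 9 fell and 2 rose in MOLM14 and 10 fell and 2 rose in OCI-AML2 with ARM165. Beside this list and those below, 34.0% of all genes fell and 35.5% rose in MOLM14. In OCI-AML2 31.6% of all genes fell and 34.2% rose. With every library at the same total 9 of the 13 fell and 3 rose in MOLM14, where 4145 of all 15288 genes fell and 6658 rose. SDHAF3, which helps to mature SDHB, had 330.0, 377, 369.7 and 391 with ARM165 and 959, 994, 815 and 926 with DMSO in MOLM14 and 208, 218, 199 and 235 with ARM165 and 887, 1181, 824 and 945 with DMSO in OCI-AML2. It fell without overlap, with changes of -1.33 ± 0.092 and -2.14 ± 0.11 (adjusted p = 3.51e-09 and 1.89e-10). BCS1L, which inserts the Rieske protein, had changes of -0.83 ± 0.081 and -1.46 ± 0.069, and UQCC2, needed for cytochrome b, of -0.79 ± 0.053 and -0.57 ± 0.087, all called. TTC19, which clears fragments of the Rieske protein from complex III, had 2470.4, 2656, 2536 and 2792 with ARM165 and 1466, 1375, 1574 and 1412 with DMSO in MOLM14 and 3624, 3153, 3452 and 3669 with ARM165 and 1302, 1494, 1275 and 1336 with DMSO in OCI-AML2. It rose in both lines, by 0.84 ± 0.058 and 1.36 ± 0.065 (adjusted p = 3.07e-09 and 5.36e-11), with every ARM165 library higher.

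Of 27 complex IV assembly factors, 16 fell and 7 rose in MOLM14 and 14 fell and 5 rose in OCI-AML2. With every library at the same total 15 of them fell and 10 rose in MOLM14, where 4145 of all 15288 genes fell and 6658 rose. The median of the 27 factors was then -0.21 instead of -0.40 there. COA4, COA7 and LRPPRC, the last of which stabilizes mitochondrial mRNAs, fell in both lines, with changes of -1.46 ± 0.068, -0.98 ± 0.059 and -1.04 ± 0.050 in MOLM14 and -0.97 ± 0.058, -0.87 ± 0.056 and -0.80 ± 0.12 in OCI-AML2. COA1 fell as well, with -0.55 ± 0.064 and -0.75 ± 0.057. SCO2 and COX10 went opposite ways in the lines and were chosen after their values were seen. SCO2, a copper chaperone for COX2, had 2227, 2677, 2474 and 1995 with ARM165 and 800.2, 943, 898 and 777 with DMSO in OCI-AML2. In MOLM14 SCO2 had 263, 387, 249 and 322 with ARM165 and 912, 1086, 1031 and 992 with DMSO. It rose in OCI-AML2 (1.45 ± 0.14, adjusted p = 1.49e-07) and fell in MOLM14 (-1.74 ± 0.13, adjusted p = 5.86e-09), and the lines differed by 3.19 ± 0.20 (adjusted p = 9.4e-12). SCO2 shares 339 exon bases with TYMP on the same strand in GENCODE release 29, so the division of reads between them is uncertain. COX10, which makes haem O for complex IV, had changes of 0.17 ± 0.069 in OCI-AML2 and -0.40 ± 0.059 in MOLM14 (adjusted p = 0.0438 and 1.98e-05).

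Of 9 further ATP synthase genes and factors, 5 fell and 1 rose in MOLM14 and 6 fell and 1 rose in OCI-AML2. The one that rose was TMEM242, an assembly factor of the c ring, with 2089, 2034, 1877 and 2420.3 with ARM165 and 945, 980.0, 1008 and 993 with DMSO in MOLM14, and 1753, 1479.8, 1965 and 1844 with ARM165 and 847, 783, 818 and 825 with DMSO in OCI-AML2. Its ARM165 libraries were all higher, with changes of 1.09 ± 0.071 and 1.10 ± 0.084 (adjusted p = 1.64e-09 and 1.26e-08). The small subunits ATP5MPL and ATP5MD fell, with -0.75 ± 0.084 and -0.57 ± 0.057 in MOLM14 and -0.74 ± 0.064 and -0.46 ± 0.068 in OCI-AML2, and ATP5IF1, the inhibitor of ATP hydrolysis, with -0.25 ± 0.061 and -0.83 ± 0.068. With every library at the same total 3 of the 9 fell and 2 rose in MOLM14, where 4145 of all 15288 genes fell and 6658 rose. The ATP5IF1 call there was then lost (-0.056, adjusted p = 0.289).

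Of 8 tissue isoforms and expressed copies 3 were tested in MOLM14 and 2 in OCI-AML2, and NDUFA4L2, the relative of NDUFA4, was the one called. It had 2096, 1732, 1691 and 1949 with ARM165 and 584, 670.2, 543 and 658 with DMSO in MOLM14 and 224, 544, 506 and 462 with ARM165 and 72.5, 116, 17.8 and 9.08 with DMSO in OCI-AML2. ARM165 was higher in every library of both lines, with changes of 1.60 ± 0.11 and 3.53 ± 0.72 (adjusted p = 4.6e-09 and 0.000452), while NDUFA4 itself fell. Of the 6 subunits of complexes III, IV and V encoded by mitochondrial DNA, 5 fell in MOLM14 and 6 in OCI-AML2. MT-CO2 and MT-CO3 of complex IV had -0.51 ± 0.050 and -0.48 ± 0.048 in MOLM14 and -0.52 ± 0.069 and -0.46 ± 0.061 in OCI-AML2, and MT-CO1 -0.27 ± 0.052 and -0.63 ± 0.059. MT-ATP8 and MT-ATP6 of the ATP synthase, which overlap each other, had -0.62 ± 0.067 and -0.49 ± 0.060 in MOLM14 and -0.65 ± 0.082 and -0.73 ± 0.077 in OCI-AML2. MT-CYB of complex III was the one not called in MOLM14, at -0.064 ± 0.044 (adjusted p = 0.206), and had -0.34 ± 0.069 in OCI-AML2 (adjusted p = 0.000449). After quantile normalization 3 were called lower and 1 higher in MOLM14 and 5 lower in OCI-AML2. Of all genes 5652 were then lower and 5121 higher in MOLM14, and 5259 lower and 4923 higher in OCI-AML2. MT-CO1 then had a change of 0 in both lines. Quantile normalization gives the same value to a gene of the same rank in every library, so this 0 does not measure its change. MT-ATP6 was then not called in MOLM14 (-0.16, adjusted p = 0.0618). With every library at the same total 4 were lower and 1 higher in MOLM14, where 4145 of all 15288 genes were lower and 6658 higher. The MT-CO1 call there was then lost (-0.077, adjusted p = 0.155).

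Of 10 tested genes for cytochrome c and nuclear regulators of respiration genes, 6 fell and 2 rose in MOLM14, with a median of -0.47, and 4 fell and 5 rose in OCI-AML2, with a median of 0.18. These shares stand beside the 34.0% of all genes that fell and 35.5% that rose in MOLM14 and 31.6% and 34.2% in OCI-AML2. Of the 10, 4 fell in both lines, 2 rose in both and 1 moved in opposite directions. CYCS, cytochrome c, had 5737, 5774, 6172 and 6975 with ARM165 and 12449.7, 12248, 12425 and 12995 with DMSO in MOLM14 and 6186, 6196, 6449.8 and 7182 with ARM165 and 13036, 14718, 12619.9 and 11966 with DMSO in OCI-AML2. It fell without overlap, with -1.03 ± 0.058 and -1.01 ± 0.068 (adjusted p = 3.12e-10 and 2.62e-09). TFAM, which packs and transcribes mitochondrial DNA, had -1.11 ± 0.047 and -0.87 ± 0.096, and the coactivators PPRC1 and PPARGC1B had -1.30 ± 0.062 and -1.14 ± 0.082 in MOLM14 and -0.71 ± 0.054 and -1.80 ± 0.12 in OCI-AML2, all called. GABPB1, a GABP subunit, rose in both lines, with 0.21 ± 0.053 and 1.00 ± 0.067 (adjusted p = 0.00253 and 2.59e-09). GABPA, the subunit that binds the ETS motif and was chosen after its values were seen, rose in OCI-AML2 (0.84 ± 0.10, adjusted p = 3.35e-06) and fell in MOLM14 (-0.20 ± 0.084, adjusted p = 0.0438). With every library at the same total 5 of the 10 fell and 4 rose in MOLM14, where 4145 of all 15288 genes fell and 6658 rose. With AZ2 0 genes of these lists were called in either line. Of the 6 mitochondrially encoded subunits 5 had an unadjusted p under 0.05 with AZ2 in MOLM14 and 1 in OCI-AML2 (limma). Over all genes 899 of 15288 and 733 of 15377 did. All 6 were above 0 in MOLM14, with a median of 0.16 and a smallest adjusted p of 0.599. In OCI-AML2 5 were above 0, with a median of 0.064. Among all genes 7715 of 15288 were above 0 in MOLM14 and 6727 of 15377 in OCI-AML2.

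**Figure D5:**
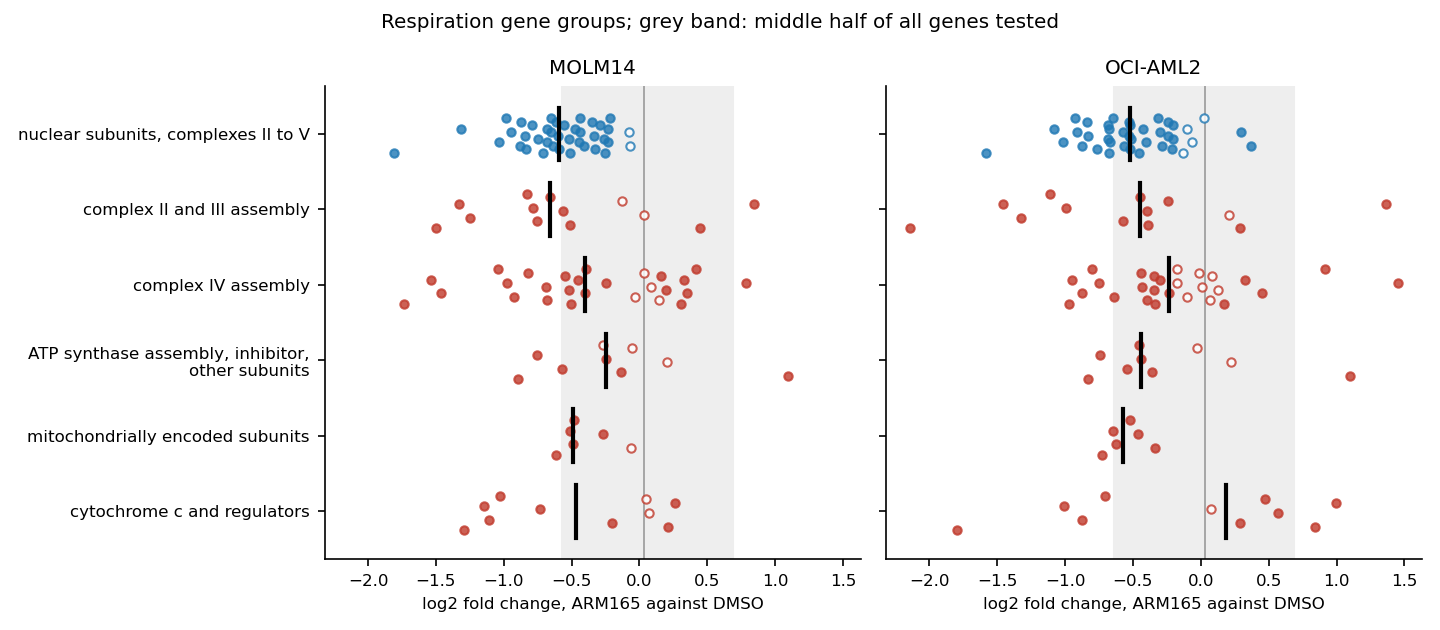
Log2 change with ARM165 against DMSO (horizontal axis) of the 39 subunits (blue) and of 5 related lists (red, without the isoforms) in each line, with open points for genes that did not pass, black bars for the median of each list, a grey line for the median of all genes tested and a grey band between their lower and upper quartiles. The subunit median lies at -0.60 in MOLM14 and -0.52 in OCI-AML2, and the assembly lists spread to both sides of 0.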

How the data were processed

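RNA from 24 libraries was analysed, 4 for each of 6 groups of line and treatment. Per the labels, poly(A) RNA was extracted with the QIAGEN RNeasy plus mini kit and made into TruSeq stranded libraries. The deposited signal is a normalized estimated count for each gene symbol, and per the submitters' processing notes kallisto was used; its version, the build, the annotation and the scaling are not given in the sources used here. Each line is a table of its own. Whole reads could not be recovered, so no count test was run.

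Values were tested with limma 3.58.1 in R 4.3.3 on log2(value + 1) with a variance trend, keeping genes that reached 10 in 4 or more libraries of the line, and adjusted by Benjamini-Hochberg over all genes kept. The threshold was an adjusted p of 0.05, and changes and SE are on that log2 scale, which understates changes of low genes. Differences between lines used 1 fit of all 24 libraries. Single ratios used exact permutation tests (scipy 1.17.1, Python 3.11.15), and figures were drawn with matplotlib 3.10.9. The procedure was tested on simulated data. Depth per library limits precision, and no counting interval is given because raw counts were not used here.

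The members and all gene lists were chosen with earlier results of these data known. Members with values per library are, per complex and line, the 3 with the smallest adjusted p for ARM165, those called against their complex, the 4 with the smallest adjusted p for the line difference, and the c subunit genes; from each other list up to 3 called genes per line are named. Replicate numbers were not stated to pair libraries. Alternatives were the pseudocount, the filter, the scaling, the variance trend, the groups fitted, a replicate block and each library left out.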

Additional observations from a re-analysis of the deposited data

Results flagged for a closer look

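In 20 of 234 groups of 4 libraries (8.55%) 1 library stood apart from the other 3 by Dixon's test, where chance alone sets apart about 1 group in 20. The 234 groups are 39 genes in the same 24 libraries and are not independent, so the 2 rates cannot be read as an excess. Replicate 4 was the highest of the OCI-AML2 AZ2 group for ATP5F1C (8432 normalized reads), ATP5MC3 (18102), ATP5PF (11748) and COX7C (17230.2), and replicate 1 was its lowest for UQCRB (38332). In OCI-AML2 with ARM165 replicate 1 was the lowest for COX4I1 (14334) and COX7C (8156). In OCI-AML2 with DMSO replicate 2 was the highest for COX7C (20326) and UQCRC2 (3166), and replicate 4 was the lowest for UQCRC1 (8591). In MOLM14 with ARM165 replicate 4 was the highest for ATP5PF (5610.05) and SDHD (6751). In MOLM14 with AZ2 replicate 3 was the highest for ATP5MC3 (13725), COX8A (8979) and UQCR11 (3482), replicate 1 was the highest for SDHD (8094), replicate 2 was the lowest for ATP5PF (7544) and SDHC (4950.24), and replicate 4 was the lowest for UQCRC2 (1950.09). In MOLM14 with DMSO replicate 1 was the highest for UQCR11 (3399).

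For 13 of the 39 members the ARM165 change differed between the lines (limma, adjusted p under 0.05 over all genes), given as OCI-AML2 minus MOLM14 on the log2 scale. Of all 14287 genes 42.4% passed the same test, 24.3% higher and 18.1% lower, so such a call is common in these data. The difference was above 0 for UQCR11 (0.54), ATP5F1E (0.52), SDHC (0.44), ATP5ME (0.35), SDHA (0.33), ATP5MF (0.30), UQCRH (0.30), COX5A (0.29), COX6A1 (0.29) and UQCRFS1 (0.26). It was below 0 for ATP5F1A (-0.40), COX4I1 (-0.38) and ATP5F1C (-0.24). Of these 13, 8 passed with every library scaled to the same total.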

How the results depend on the processing

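Counting each named gene once per alternative, 1350 of 1364 values for ARM165 in MOLM14, 1351 of 1364 in OCI-AML2 and 428 of 442 line differences kept their direction and their side of the threshold. With every library at the same total, 2 members rose in MOLM14 against DMSO (SDHC 0.11, UQCRC1 0.12) and 1 against AZ2. The medians in MOLM14 were then -0.40 (all members), -0.092 (II), -0.36 (III), -0.41 (IV) and -0.45 (ATP synthase) against DMSO, and -0.39, -0.11, -0.32, -0.39 and -0.48 against AZ2. The line difference had 11 members lower and 5 higher, where 3821 of all 14287 genes were lower and 2382 higher. Its medians were -0.067, 0.069, -0.026, -0.18 and -0.13. In MOLM14 against DMSO the members' median less that of all genes was -0.63 as deposited and -0.62 at the same total. A single factor per library shifts all genes nearly alike, so this scaling could hardly move that difference. It was -0.45 after quantile normalization. After quantile normalization 1 member rose in MOLM14 (UQCRB 0.11), the medians were -0.51 (all members) and -0.54 (ATP synthase) against DMSO and -0.53 (ATP synthase) against AZ2, the line difference had a median of 0.0045, and UQCRB was 0.054 and COX6A1 0.0013 in OCI-AML2. UQCRC1 in OCI-AML2 was -0.013 with median-of-ratios factors and -0.0043 to 0.043 with 1 library left out. The cause of these shifts was not tested.

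Over all genes, AZ2 in OCI-AML2 gave 10 lower and 5 higher without the filter, 5 and 2 without the trend, 9 lower with the replicate block, and 2 higher with a pseudocount of 5, quantile normalization or only the groups compared. AZ2 in MOLM14 gave 1 lower with only the groups compared. The AZ2 line difference gave 2 higher without the filter or with only the groups compared, 2 lower with the replicate block and 1 lower without the trend. With 1 library left out, AZ2 gave 0 to 3 lower in MOLM14 and 8 to 16 lower and 1 to 2 higher in OCI-AML2, its line difference 0 to 7 lower and 0 to 1 higher, the ARM165 line difference of complex III a median of 0.096 to 0.20, and ATP5MC1 over ATP5MC3 with AZ2 in OCI-AML2 -0.032 to 0.037. The list genes under each alternative, and the shares and ratios with 1 library left out, were added after seeing the data.

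Pairs of libraries with the same replicate number had r of -0.026 to 0.056 (median 0.019) in MOLM14 and -0.037 to 0.047 (median 0.011) in OCI-AML2. Pairs with different numbers had -0.063 to 0.046 (median -0.0074) and -0.056 to 0.044 (median -0.0050), with lower medians in both lines. The labels do not state that the numbers pair libraries, so the main fit did not pair them. Among the 4 numbers of another group, a library correlated best with its own number in 12 of 24 and 9 of 24 comparisons. That is a hint from the data, not from the design. With the replicate block 37 members fell in MOLM14, and 33 fell and 2 rose in OCI-AML2.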
